A study of Rattus norvegicus with 35 samples.

Results

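Tumours rich in stroma were set against tumours poor in stroma among the mammary tumours of a rat study, and the expression of all other genes was compared between them. Of the 35 arrays of the series, 24 hold tumours and 11 hold normal mammary glands. Per the labels, the tumours arose after NMU (N-methyl-N-nitrosourea), a carcinogen that alkylates DNA, and were kept frozen, and the glands were normal. The labels give no strain, dose or time, and no age beyond the title of the normal gland Young. The tumour titled X22L, whose score was 12.72, was left out by the choice of samples, and the other 23 tumours were ranked by a stroma score. The 8 with the highest score (stroma-rich) and the 8 with the lowest score (stroma-poor) were chosen, which leaves 7 in the middle. Each sample was hybridised to 1 array, on which sets of short probes (probe sets) report genes as signals on a linear intensity scale. The score is the mean log2 signal of Col1a1, Dcn and Sparc, so the groups were chosen by measured values and are no treatment groups.

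Tumour stroma is the tissue between the nests of cancer cells. It is made of fibroblasts, blood vessels, immune cells and the matrix that fibroblasts secrete, and in the mammary gland it borders on fat. Fibroblasts secrete procollagens, which are trimmed outside the cell, assemble into fibrils under the guidance of small proteoglycans, and are cross-linked by lysyl oxidases. Col1a1 encodes a chain of collagen I, the main fibril of connective tissue, Dcn encodes decorin, a proteoglycan that binds those fibrils, and Sparc encodes a collagen-binding protein of the matrix.

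The stroma score was 11.41 ± 0.67 in the 8 stroma-rich tumours, 9.65 ± 0.45 in the 7 middle tumours and 8.17 ± 0.69 in the 8 stroma-poor tumours, against 12.33 ± 0.34 in the 11 normal glands (log2 signal, mean ± SD). The stroma-rich tumours were X10 (12.62), X25L (11.99), X17 (11.51), X15 (11.43), X27 (11.42), X6 (11.10), X29.1 (10.71) and X29.2 (10.52). Those poor in stroma were X25R (8.90), X21 (8.87), X19 (8.61), X32 (8.35), X4 (8.34), X18 (7.94), X20 (7.31) and X2 (7.06). At the upper boundary X29.2, with a score of 10.52, was inside and X13, with 10.16, was outside. At the lower boundary X25R, with 8.90, was inside and X26, with 9.11, was outside. The scores run on without a break, so the 2 groups are ends of a range and not separate classes. The scores of X10 and X25L lay within the range of the normal glands, 11.76 to 13.02. The upper end of that range is the gland titled Young. The next highest gland, NewN7, had 12.50, which is below X10.

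The 3 genes of the score are given as a description, with no test. Col1a1 signals were 1489, 2844 and 8788 in stroma-rich tumours (lowest, median and highest), against 69.2, 293 and 522 in stroma-poor tumours. For Dcn they were 657, 2061 and 4423 in stroma-rich tumours, against 50.1, 103 and 553 in stroma-poor tumours. Sparc had 1816, 3212 and 6431 in stroma-rich tumours, against 406, 796 and 1441 in stroma-poor tumours. None of the 3 overlapped between the groups, which these genes chose. Across the 23 ranked tumours the log2 signals of Col1a1 and Dcn had a Pearson r of 0.858, those of Col1a1 and Sparc of 0.866, and those of Dcn and Sparc of 0.714, which is a description over arrays that share their scaling. A further probe set of Col1a1, which the score did not use, averaged 2620 ± 1904 in stroma-rich tumours and 224 ± 102 in stroma-poor tumours (SD, n = 8 each). One of Sparc averaged 2153 ± 1049 in stroma-rich tumours and 603 ± 184 in stroma-poor tumours. Both report genes that chose the groups, so these gaps are largely built in.

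**Figure D1:**
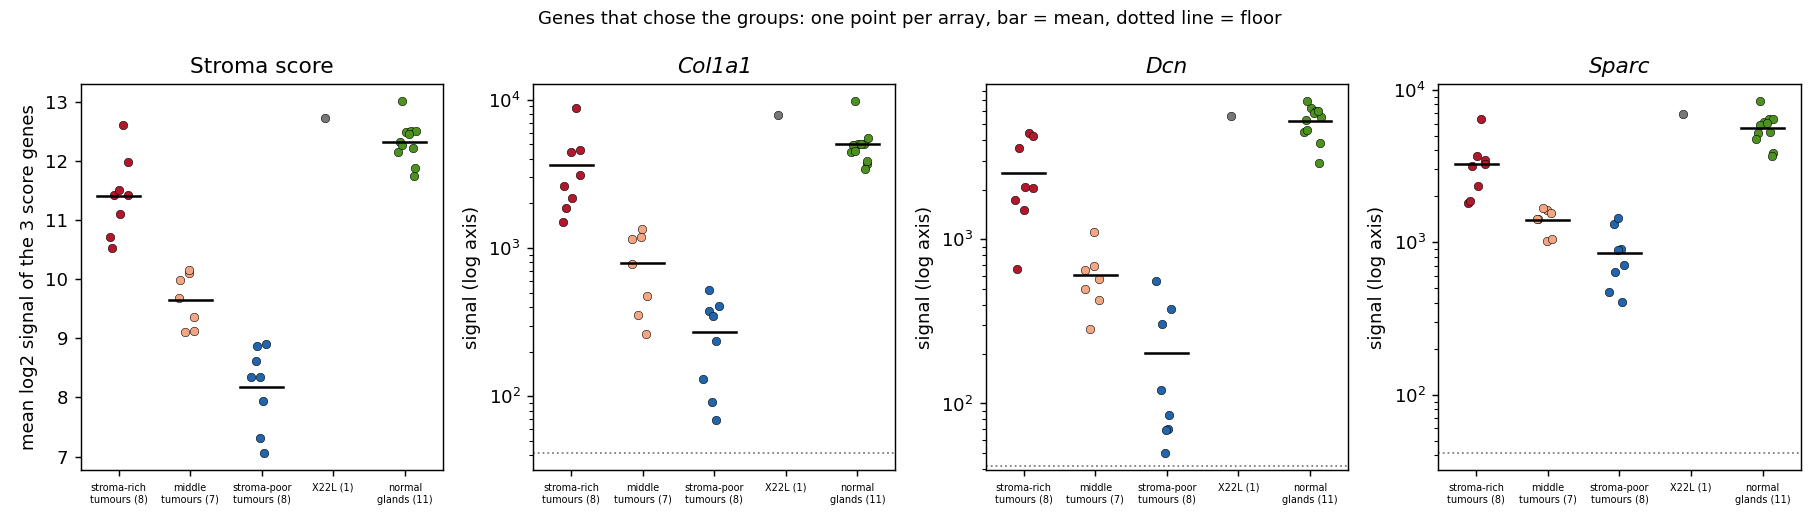
Stroma score (left, mean log2 signal) and signals of Col1a1, Dcn and Sparc (log axes) on each array, for stroma-rich, middle and stroma-poor tumours, the tumour X22L and the normal glands. Each point is 1 array, bars are means, and the dotted line is the floor of 41.6; the scores of the 8 stroma-rich tumours lie at 10.52 and above and those of the 8 stroma-poor tumours at 8.90 and below because the score chose them.

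None of 5 measures of overall signal and RNA quality passed adjustment between the groups. The median signal of an array was 170.2 ± 3.29 in stroma-rich tumours and 168 ± 3.65 in stroma-poor tumours (SD, n = 8 each, exact two-sided permutation p = 0.139). The 90th percentile of signal was 619 ± 32.3 in stroma-rich tumours and 569 ± 56.0 in stroma-poor tumours (exact two-sided permutation p = 0.0449, 0.112 after adjustment over 5 measures). For the Actb control probe sets, the 3' signal over the 5' signal, which rises as RNA degrades, was 1.315 ± 0.157 in stroma-rich tumours and 1.19 ± 0.0561 in stroma-poor tumours (exact two-sided permutation p = 0.0239, 0.112 after adjustment). For Gapdh this ratio was 1.01 ± 0.0699 in stroma-rich tumours and 0.992 ± 0.0555 in stroma-poor tumours (exact two-sided permutation p = 0.539). With the Gapdh ratio as a covariate, 158 genes were called between the groups in place of 180. The part of the other measures in the gene differences was not tested. The labels name no animals, so p-values measure only the spread between these arrays, which may in part be technical. X25L and X25R share a number in their titles, as do X29.1 and X29.2. The normal glands X27.1N and X28.1N likewise carry the numbers of the tumours X27 and X28. The labels do not say what the number stands for.

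With a Benjamini-Hochberg adjusted p under 0.05 as the call, 180 of 10408 genes (1.73%) differed between stroma-rich and stroma-poor tumours. Of these, 172 (1.65% of the genes tested) were higher in stroma-rich tumours and 8 (0.0769%) were lower. The difference was at least 2-fold for 106 of the 172 and at least 4-fold for 30 of them, and at least 2-fold for 2 of the 8. The median difference over all genes was 0.02 on the log2 scale, with quartiles of -0.11 and 0.16. An unadjusted p under 0.05 by limma was reached by 1687 of the 10408 genes, which is the background for such counts in the lists below. For 63 genes (0.605%), every stroma-rich tumour was above every stroma-poor one, and 61 of these were among the 172; for 0 genes (0.00%) every stroma-rich tumour was below. Differences below are log2, stroma-rich minus stroma-poor tumours, from limma with p-values adjusted over all probe sets. The calls tell which genes differed together with the score on the same arrays. In pieces of whole tumour, fewer cells of a type and less RNA per cell cannot be told apart. The count ran from 122 without X15 to 272 without X25R. No called gene examined one by one turned its direction in any of the 16 fits that left out 1 tumour. For the genes named for the largest rises and falls, this was a condition of their choice. Without X15, 121 of the 122 genes were among the 180. After quantile normalization 148 genes were higher and 26 lower, and 152 of these 174 were among the 180.

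The 10 largest differences among genes that kept their direction in each of those fits and under quantile normalization were all in genes higher in stroma-rich tumours, namely Lum, Postn, Mfap4, Col1a2, Col3a1, Lox, Lgals1, Loxl1, Pdgfra and Col6a1. Except for Lgals1 and Pdgfra, these encode secreted components or cross-linking enzymes of the matrix. Lgals1 encodes galectin-1, a secreted lectin that binds galactosides. Its signals were 647, 1565 and 2579.7 in stroma-rich tumours (lowest, median and highest), against 56.8, 144 and 333 in stroma-poor tumours, and no stroma-poor tumour reached the lowest stroma-rich one. The log2 difference was 3.19 (SE 0.31, adjusted p = 2.33e-05). Genes named below were taken by a rule over fixed lists and a panel. The lists and the panel were chosen with earlier results of these data known, so counts within the lists are a description. Some genes were chosen after their values were seen, namely Col5a1, Col5a2, Col6a2, Col6a3, Col12a1, Col15a1, P4ha1, Mfap5, Dpt, Sparcl1, Tgfbi, Spp1, Ccn2, Thbs4, Timp1, Timp2, Mmp7, Thy1, Cd248, Fap, Snai1, Igfbp4, Fgfr1, C3, Kdr, Emcn, Rgs5, F2r, Enpp2, Gask1b, Cfd and Cd48.

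Of 14 fibrillar and fibril-associated collagen genes measured besides Col1a1, 9 were higher in stroma-rich tumours and 0 were lower, with a median log2 difference of 1.87. Col3a1, which encodes the chain of collagen III, had signals of 2513, 4733 and 9190.2 in stroma-rich tumours (lowest, median and highest), against 190.0, 447 and 830.5 in stroma-poor tumours. Its log2 difference was 3.58 (SE 0.32, adjusted p = 9.71e-06), and the groups did not overlap. Col1a2, which encodes the other chain of collagen I, had 1005, 2694 and 7922 in stroma-rich tumours, against 93.7, 252 and 489 in stroma-poor tumours, again without overlap, and a difference of 3.59 (SE 0.39, adjusted p = 5.14e-05). The 3 chains of collagen VI, a beaded microfibril around cells, moved alike: Col6a1 differed by 3.08 (SE 0.40), Col6a3 by 3.08 (SE 0.33) and Col6a2 by 2.53 (SE 0.37). Col6a1 signals were 376, 1447 and 3847 in stroma-rich tumours, against 70.4, 171 and 265 in stroma-poor tumours. Col15a1, whose product sits at basement membranes, had 168, 376 and 1258 in stroma-rich tumours, against 60.1, 81.8 and 126 in stroma-poor tumours and differed by 2.15 (SE 0.29, adjusted p = 0.000588). Col12a1, which encodes a collagen on the surface of collagen I fibrils, had 188, 319.8 and 998 in stroma-rich tumours, against 66.6, 106 and 159 in stroma-poor tumours and differed by 1.85 (SE 0.33, adjusted p = 0.00475). For both, every stroma-rich tumour was above every stroma-poor one. Within collagen V, Col5a1 averaged 590.1 ± 302 in stroma-rich tumours and 272 ± 44.7 in stroma-poor tumours (SD, n = 8 each), was called (limma, adjusted p = 0.0267) and lost the call without X17, X18, X21 or X25L (adjusted p up to 0.0643) and after quantile normalization, while Col5a2 at 1.22 (adjusted p = 0.0877) did not pass.

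Both lysyl oxidases with large differences act outside the cell. Of 15 genes for collagen processing and cross-linking, 4 were higher in stroma-rich tumours, 0 were lower and the median log2 difference was 0.16. Lox encodes lysyl oxidase, which cross-links collagen and elastin. It had 211, 376 and 1153 in stroma-rich tumours (lowest, median and highest), against 15.7, 34.1 and 54.7 in stroma-poor tumours, and 5 of the 8 stroma-poor tumours were at or under the floor of 41.6. The difference was 3.27 (SE 0.31, adjusted p = 1.68e-05). The related Loxl1 had 205, 663 and 1860.1 in stroma-rich tumours, against 14.2, 66.5 and 147 in stroma-poor tumours and differed by 3.19 (SE 0.40, adjusted p = 0.000278). Neither gene overlapped between the groups. Pcolce, an enhancer of the protease that trims procollagen, had 397, 777 and 1443 in stroma-rich tumours, against 39.4, 219 and 467 in stroma-poor tumours and differed by 1.87 (SE 0.38, adjusted p = 0.0151). X32 among the stroma-poor tumours was above X29.1 and X29.2, which were the lowest stroma-rich tumours for this gene. Serpinh1, the collagen chaperone of the endoplasmic reticulum, differed by 0.94 (SE 0.17, adjusted p = 0.00629), with every stroma-rich tumour above every stroma-poor one. The prolyl hydroxylase subunits, which modify collagen inside the cell, were not called. P4hb signals were 1892, 2067 and 2197 in stroma-rich tumours, against 1395, 2079.6 and 2659.7 in stroma-poor tumours, with a difference of 0.07 (adjusted p = 0.794), and P4ha1 differed by 0.09 (adjusted p = 0.937).

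Among 12 genes for small leucine-rich proteoglycans and hyaluronan matrix, 3 were higher in stroma-rich tumours and 0 lower, with a median log2 difference of 0.54. Lum encodes lumican, a proteoglycan that spaces collagen fibrils. Its signals were 667, 1013 and 2807 in stroma-rich tumours (lowest, median and highest), against 11.6, 38.4 and 147 in stroma-poor tumours, with 4 of the 8 stroma-poor tumours at or under the floor. The log2 difference of 4.30 (SE 0.36, adjusted p = 5.21e-06) was the largest among all called genes, and all stroma-rich tumours exceeded all stroma-poor ones. Bgn, which encodes biglycan, the closest relative of decorin, had 560.1, 1108 and 3052 in stroma-rich tumours, against 57.5, 190.4 and 358 in stroma-poor tumours without overlap and differed by 2.68 (SE 0.36, adjusted p = 0.000514). Ogn, which encodes osteoglycin, differed by 2.09 (SE 0.44, adjusted p = 0.0174), and 6 of the 8 stroma-poor tumours were at or under the floor.

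Elastic fibre and microfibril genes were higher in 3 of 14 cases and lower in 0, with a median of 0.58 on the log2 scale. Mfap4, a microfibril-associated glycoprotein, had 64.8, 534 and 2945 in stroma-rich tumours (lowest, median and highest), against 1, 3.28 and 90.6 in stroma-poor tumours. A signal of 1 is the lowest value in the deposited table. It was found in 4 of the stroma-poor tumours, and 6 of the 8 stroma-poor tumours were at or under the floor. X25R, the brightest stroma-poor tumour for Mfap4, was above X29.1, the dimmest stroma-rich one. The difference was 3.62 (SE 0.55, adjusted p = 0.00135). Fbn1, which encodes fibrillin-1, had 119.9, 269 and 1491 in stroma-rich tumours, against 62.6, 86.9 and 96.4 in stroma-poor tumours and differed by 1.97 (SE 0.36, adjusted p = 0.00649). Eln, which encodes elastin, had 675, 1186 and 2876 in stroma-rich tumours, against 264, 412 and 452 in stroma-poor tumours and differed by 1.65 (SE 0.23, adjusted p = 0.000768). Neither overlapped between the groups. The microfibril gene Mfap5 spread widely, with 33.6, 316 and 1048 in stroma-rich tumours, against 15.3, 31.7 and 109.5 in stroma-poor tumours, and did not pass (2.16, adjusted p = 0.091).

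Matricellular and adhesive glycoproteins, which link cells to the matrix, were higher in 7 of 13 cases and lower in 0, with a median log2 difference of 1.42. Postn encodes periostin, which binds collagen and recruits lysyl oxidase activity. It had 1578, 2921 and 6443 in stroma-rich tumours (lowest, median and highest), against 33.5, 203 and 577 in stroma-poor tumours and a difference of 3.94 (SE 0.42, adjusted p = 4.9e-05), with no overlap. Tnc encodes tenascin-C, a glycoprotein of developing and wounded tissue. Its signals were 133, 381 and 581 in stroma-rich tumours, against 11.2, 43.5 and 148 in stroma-poor tumours, and the difference was 2.51 (SE 0.33, adjusted p = 0.000494). X32 was the 1 stroma-poor tumour above the lowest stroma-rich one, X6. Fn1, which encodes fibronectin, had 1028, 1388 and 3167 in stroma-rich tumours, against 133, 268 and 1085 in stroma-poor tumours and differed by 2.55 (SE 0.36, adjusted p = 0.000768), with X21 as the only stroma-poor tumour inside the stroma-rich range. Mgp, which encodes matrix Gla protein, an inhibitor of calcification, had 2028, 4978 and 7311 in stroma-rich tumours, against 422, 1064 and 2076 in stroma-poor tumours and differed by 2.18 (SE 0.31, adjusted p = 0.000746). Sparcl1, a relative of Sparc, and Tgfbi, a matrix adhesion protein induced by TGF-beta, were also called, with differences of 1.88 (SE 0.34) and 1.04 (SE 0.18). Dpt, which encodes dermatopontin, differed by 2.51 (SE 0.59, adjusted p = 0.0357), a call that was lost in 11 of the 16 fits with 1 tumour left out, namely X2, X10, X15, X17, X18, X19, X20, X21, X25L, X27 or X32 (adjusted p up to 0.087). Spp1, which encodes osteopontin, had 179.7, 545 and 1525 in stroma-rich tumours, against 230.0, 419 and 880.3 in stroma-poor tumours and did not pass (0.33, adjusted p = 0.695). Ccn2, which encodes a connective tissue growth factor, differed by 0.66 (adjusted p = 0.189), likewise short of the threshold.

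Sequence just upstream of the genes with the largest differences is shown for those whose promoter was in the RefSeq table used (assembly GRCr8), which holds 6 of the 10, since these genes moved together. The 250 bases before the annotated start were searched on both strands for the TATA box (TATAAA) and the CCAAT box (CCAAT, which reads ATTGG on the other strand); the motifs do not overlap. Capitals mark the matches, and each line reads 5′ to 3′ on the strand of the gene.

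Lum: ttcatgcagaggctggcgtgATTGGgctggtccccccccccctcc

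Postn: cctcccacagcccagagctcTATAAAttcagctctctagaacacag

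Col1a2: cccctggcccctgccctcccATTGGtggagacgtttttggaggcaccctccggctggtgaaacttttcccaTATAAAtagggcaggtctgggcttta

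Pdgfra: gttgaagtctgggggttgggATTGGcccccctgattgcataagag

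The Lum stretch (chr7:34245556-34245600, plus strand) holds a CCAAT box that begins 130 bases before the start. That of Postn (chr2:140677997-140678042, plus strand) holds a TATA box 44 bases before it. In Col1a2 (chr4:33518316-33518412, plus strand) a CCAAT box lies 221 bases and a TATA box 170 bases before the start. In Pdgfra (chr14:33408713-33408757, minus strand) a CCAAT box lies 221 bases before it. Neither motif was in the window of Loxl1 or Col6a1. Among the 121 genes higher in stroma-rich tumours that have a promoter in the table, 10.74% held the TATA box, against 8.33% of the 8629 tested genes in the table and 13.09% of all 27457 promoters. The CCAAT box was in 26.45% of the 121, against 35.37% of the tested genes and 34.24% of all promoters. A match is a description of letters in this window and not a binding site.

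Among 23 matrix proteases and their inhibitors, 6 were higher in stroma-rich tumours, 0 were lower, and the median log2 difference was 0.28. Ctsk encodes cathepsin K, a collagenase of lysosomes. It had 124, 343 and 933 in stroma-rich tumours (lowest, median and highest), against 13.9, 57.3 and 78.3 in stroma-poor tumours and differed by 2.59 (SE 0.31, adjusted p = 0.000198). Mmp2, a gelatinase that fibroblasts secrete, had 447, 915 and 2521 in stroma-rich tumours, against 153, 199 and 343 in stroma-poor tumours and differed by 2.39 (SE 0.31, adjusted p = 0.000342). Neither overlapped between the groups. Mmp14, a membrane-bound activator of the Mmp2 protein, had 1849, 2656 and 4251 in stroma-rich tumours, against 636, 1413 and 1886 in stroma-poor tumours with overlap and differed by 1.05 (SE 0.20, adjusted p = 0.00979). The inhibitors Timp2, at 1.34 (SE 0.26, adjusted p = 0.0102), and Timp1, at 1.10 (SE 0.24, adjusted p = 0.024), were higher as well. Timp1 lost its call without X2, X4, X10, X15 or X25L (adjusted p up to 0.0586) and under quantile normalization. Serpinf1, which encodes a serpin that limits vessel growth, differed by 1.62 (SE 0.39, adjusted p = 0.0436) and lost its call in 11 of the 16 fits, without X2, X4, X6, X10, X15, X17, X18, X19, X25L, X27 or X32 (adjusted p up to 0.0998), and also after quantile normalization. With the adipocyte list mean as a covariate, 3 of the 23 genes were called, and Timp1, Timp2 and Serpinf1 lost their calls.

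Other metalloproteinases did not pass the test. Mmp3, which encodes stromelysin-1, had 841, 2015 and 4711 in stroma-rich tumours (lowest, median and highest), against 1183, 2083 and 5480.0 in stroma-poor tumours, with wide overlap (-0.06, adjusted p = 0.975). Mmp13, which encodes collagenase-3, had 146, 728 and 2551 in stroma-rich tumours, against 239, 829.8 and 1590.1 in stroma-poor tumours (-0.16, adjusted p = 0.931). Mmp7, which encodes matrilysin, an enzyme of epithelium, differed by 0.25 (adjusted p = 0.855). All 3 were called higher than in normal glands in both groups of tumours, with adjusted p of at most 3.09e-05. Stroma-rich minus normal differences were 4.04 for Mmp3, 3.78 for Mmp13 and 2.75 for Mmp7, and stroma-poor minus normal differences were 4.11, 3.94 and 2.50 in the same order. The 2 sets of differences share the normal glands.

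**Figure D2:**
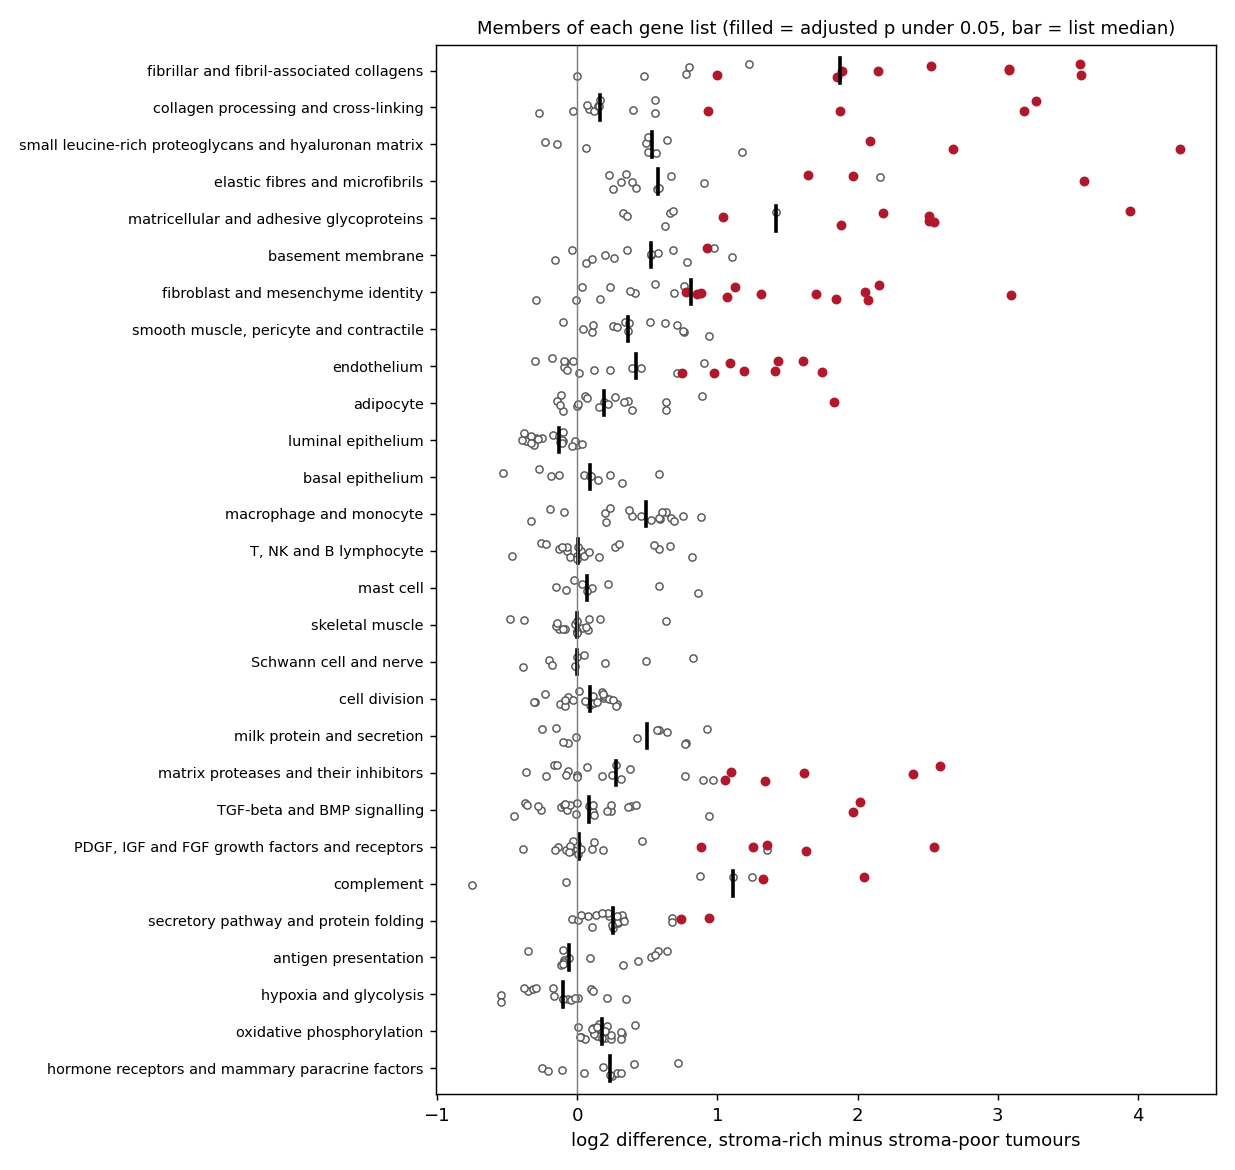
Log2 difference, stroma-rich minus stroma-poor tumours, of each measured member of 28 gene lists (rows). Each point is 1 gene, filled points passed the adjusted p of 0.05, and the bar is the list's median; filled points lie right of 0 and are densest in the collagen (9 of 14), matricellular (7 of 13) and fibroblast (12 of 22) lists.

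Among the lists of cell type markers, that of fibroblasts and mesenchyme had the most called genes. Of 22 such markers, 12 were higher in stroma-rich tumours and 0 lower, and their median log2 difference was 0.81. Pdgfra, a receptor for platelet-derived growth factor on fibroblasts, had 158, 474 and 841 in stroma-rich tumours (lowest, median and highest), against 1, 7.77 and 95 in stroma-poor tumours. In 6 of the 8 stroma-poor tumours it was at or under the floor, the groups did not overlap, and the difference was 3.10 (SE 0.32, adjusted p = 3.96e-05). Cdh11, a cadherin of mesenchymal cells, had 81.5, 195 and 419 in stroma-rich tumours, against 19.7, 25.7 and 65 in stroma-poor tumours without overlap and differed by 2.08 (SE 0.28, adjusted p = 0.000494). Thy1, a surface glycoprotein of fibroblasts, had 139.8, 429 and 1651 in stroma-rich tumours, against 59.5, 96.8 and 214 in stroma-poor tumours and differed by 2.05 (SE 0.39, adjusted p = 0.00764). Pdgfrb, the receptor shared by fibroblasts and pericytes, differed by 1.85 (SE 0.31, adjusted p = 0.00304). Vim, which encodes vimentin, had 935, 1851 and 2995 in stroma-rich tumours, against 543, 684 and 1227 in stroma-poor tumours with overlap and differed by 1.32 (SE 0.24, adjusted p = 0.00629). The activation marker Fap and the transcription factor Snai1 differed by 0.85 (SE 0.19) and 0.89 (SE 0.18). S100a4 was called at 2.15 (SE 0.47, adjusted p = 0.023) but not without X15 (adjusted p = 0.0524), Fap not without X2, X15, X18, X19, X21 or X25L (up to 0.071), and Cd248, a pericyte and fibroblast glycoprotein at 1.70 (SE 0.40), not without X2, X4, X15, X17, X18, X20, X21, X25L or X29.2 (up to 0.0783). The count of 12 was 7 without X15 and 6 with the adipocyte list mean as a covariate. Fstl1, at 0.69 (adjusted p = 0.22), and 9 others did not pass.

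No contractile gene of smooth muscle, myoepithelium and activated fibroblasts passed the test. Of 15, limma called 0 in either direction, 4 had an unadjusted p under 0.05, and the median log2 difference was 0.37. Acta2, which encodes smooth muscle actin, had 733, 1717 and 3063 in stroma-rich tumours (lowest, median and highest), against 935, 1128 and 1945 in stroma-poor tumours (0.26, adjusted p = 0.647). For Tagln, which encodes transgelin, the values were 322, 819 and 1888 in stroma-rich tumours, against 249.5, 442 and 953 in stroma-poor tumours (0.76, adjusted p = 0.305). Both overlapped widely between the groups. Rgs5, a pericyte marker, differed by 0.94 (adjusted p = 0.0918). Of 15 basement membrane genes, 1 was higher and 0 lower, with a median of 0.53. That gene was Nid2, which encodes nidogen-2, with 139.8, 175 and 378 in stroma-rich tumours, against 71.5, 96.7 and 135 in stroma-poor tumours and a difference of 0.93 (SE 0.18, adjusted p = 0.00979). Col4a1 and Col4a2, the main chains of collagen IV, differed by 0.53 (adjusted p = 0.324) and 0.69 (adjusted p = 0.347). Between 1 and 4 basement membrane genes passed when 1 tumour was left out.

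Of 22 genes for growth factors of the PDGF, IGF and FGF families and their receptors, 5 were higher in stroma-rich tumours and 0 lower, and the median log2 difference was 0.02. Igf1, which encodes insulin-like growth factor 1, a stromal growth factor of the mammary gland, had 152, 411 and 778 in stroma-rich tumours (lowest, median and highest), against 70.4, 102 and 218 in stroma-poor tumours and differed by 1.64 (SE 0.34, adjusted p = 0.0157). X19 and X32 were the stroma-poor tumours inside the stroma-rich range. Among the binding proteins of the IGFs, Igfbp6 had 135, 422 and 1345 in stroma-rich tumours, against 20.5, 55.7 and 239 in stroma-poor tumours and differed by 2.54 (SE 0.43, adjusted p = 0.00338). Igfbp7 and Igfbp4 differed by 1.35 (SE 0.27) and 1.25 (SE 0.25). With the adipocyte list mean as a covariate, 2 of the 22 genes were called, and Igf1, Igfbp4 and Igfbp7 lost their calls. Igfbp5, at 0.47 (adjusted p = 0.405), and Igfbp2, at 0.12 (adjusted p = 0.824), did not pass. The receptor gene Fgfr1 differed by 0.88 (SE 0.15, adjusted p = 0.00338). Igf2 overlapped in full, with 601, 711 and 866 in stroma-rich tumours, against 581, 720.0 and 1076 in stroma-poor tumours (-0.03, adjusted p = 0.935).

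The ligands of the TGF-beta pathway, which drives fibroblasts to make matrix, were not called. Tgfb1 had 90.2, 127 and 269 in stroma-rich tumours (lowest, median and highest), against 50.6, 96 and 219 in stroma-poor tumours (0.39, adjusted p = 0.519), and Tgfb3 had 236, 576 and 806 in stroma-rich tumours, against 309.6, 691 and 1150.5 in stroma-poor tumours (-0.37, adjusted p = 0.528). Of 25 genes of TGF-beta and BMP signalling, 2 were higher, 0 lower and the median log2 difference was 0.08. One was Id3, a target of BMP signals, with 267, 549 and 974 in stroma-rich tumours, against 57.9, 138 and 345 in stroma-poor tumours and a difference of 1.96 (SE 0.30, adjusted p = 0.00167). The other was Nbl1, a secreted BMP antagonist, with 138, 231 and 459.6 in stroma-rich tumours, against 10.6, 56.2 and 122 in stroma-poor tumours and a difference of 2.01 (SE 0.30, adjusted p = 0.000981). Id2 differed by -0.09 (adjusted p = 0.898).

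In the secretory pathway, 2 of 21 genes were higher and 0 lower, with a median log2 difference of 0.26. Creb3l1, a transcription factor that in mouse bone drives procollagen genes, had 90.3, 143 and 263 in stroma-rich tumours (lowest, median and highest), against 51, 77.5 and 108 in stroma-poor tumours and differed by 0.94 (SE 0.21, adjusted p = 0.0266). Its call was lost without X2, X4, X10, X15, X18 or X21 (adjusted p up to 0.0632). Sec24d, a coat protein of the vesicles that carry procollagen out of the endoplasmic reticulum, differed by 0.74 (SE 0.14, adjusted p = 0.00629). The general chaperones Hspa5 and Calr differed by 0.10 (adjusted p = 0.629) and 0.13 (adjusted p = 0.523). Of 7 complement genes, 2 were higher and 0 lower, with a median of 1.11. Serping1, the inhibitor of complement C1, had 184, 764 and 1839 in stroma-rich tumours, against 93.6, 136 and 509.8 in stroma-poor tumours and differed by 2.05 (SE 0.43, adjusted p = 0.0176). C1s, a protease of the C1 complex, differed by 1.33 (SE 0.30, adjusted p = 0.0313) and lost its call without X4, X10, X15, X19, X21 or X25L (adjusted p up to 0.0774) and after quantile normalization. With the adipocyte list mean as a covariate, 0 of the 7 complement genes and 1 of the 21 secretory genes were called. C3 spread over 285, 567 and 2102 in stroma-rich tumours, against 118, 195 and 956 in stroma-poor tumours and did not pass (1.25, adjusted p = 0.229).

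Vessel genes were partly higher in stroma-rich tumours. Of 22 endothelial genes, 8 were higher and 0 lower, and the median log2 difference was 0.42. Cd93, a surface receptor of endothelium, had 156, 253 and 334 in stroma-rich tumours (lowest, median and highest), against 38.2, 59.2 and 156 in stroma-poor tumours, with the lowest stroma-rich tumour just above the highest stroma-poor one, and differed by 1.75 (SE 0.29, adjusted p = 0.00267). The water channel gene Aqp1 had 162, 407 and 764 in stroma-rich tumours, against 73.6, 141 and 206 in stroma-poor tumours with overlap and differed by 1.61 (SE 0.29, adjusted p = 0.00628). Ramp2, a co-receptor for adrenomedullin, differed by 1.41 (SE 0.27, adjusted p = 0.00735), Emcn, which encodes endomucin, by 1.19 (SE 0.20), and Kdr, the main receptor for vascular endothelial growth factor, by 1.09 (SE 0.20). For these 3 genes every stroma-rich tumour was above every stroma-poor one. Pecam1, an adhesion molecule of all endothelium, had 164, 301 and 550.3 in stroma-rich tumours, against 123, 161 and 251 in stroma-poor tumours and fell short of the threshold (0.90, adjusted p = 0.0535), as did Podxl (-0.09, adjusted p = 0.903). Plvap, a protein of vessel fenestrae, was called at 1.44 (SE 0.34, adjusted p = 0.0422) and lost the call in 14 of the 16 fits, all but those without X29.1 or X29.2 (adjusted p up to 0.0913). Between 6 and 9 endothelial genes passed when 1 tumour was left out, 6 of them without X15.

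Of the fat markers 1 gene passed, and 1 tumour stood out in their level. Of 19 adipocyte genes, 1 was higher in stroma-rich tumours and 0 lower, and the median log2 difference was 0.19. That gene was Lpl, lipoprotein lipase, with 128, 416 and 980.1 in stroma-rich tumours (lowest, median and highest), against 44.8, 149.5 and 272 in stroma-poor tumours. Its difference was 1.83 (SE 0.40, adjusted p = 0.0239), and the call was lost without X10, X15 or X19 (adjusted p up to 0.0591). Fabp4, which encodes a fat cell carrier of fatty acids, had 10.8, 32.1 and 929 in stroma-rich tumours, against 9.34, 44.3 and 99.5 in stroma-poor tumours (0.64, adjusted p = 0.579), and the highest value was that of X15. Cfd, which encodes adipsin, had 32.2, 141 and 1754 in stroma-rich tumours, against 30.7, 55.2 and 232 in stroma-poor tumours (0.89, adjusted p = 0.531), again highest in X15. The mean log2 signal of the adipocyte list was 7.89 in X15 and 6.42 to 6.90 in the other stroma-rich tumours, against 6.25 to 6.66 in stroma-poor tumours and 9.15 to 10.69 in normal glands. With that mean as a covariate, 93 genes were called, 92 of them among the 180. Of the 73 called genes among those examined one by one, 27 lost the call in that fit, namely C1s, Card9, Cd248, Col5a1, Creb3l1, Dpt, Fap, Fgf22, Gask1b, Igf1, Igfbp4, Igfbp7, Lpl, Ncan, Ogn, Pcolce, Plvap, Pzp, S100a4, Serpinf1, Serping1, Slc22a2, Slc4a3, Snai1, Thbs4, Timp1 and Timp2. Lpl is itself a member of the adipocyte list, so the loss of its call in that fit is partly built in. The part of fat in the single differences was not tested beyond this covariate.

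Epithelial genes did not pass the test in either direction. Of 21 luminal genes, 1 had a positive difference, 2 had an unadjusted p under 0.05 and 0 passed, and the median log2 difference was -0.13, against 0.02 over all genes. After quantile normalization the list's median was -0.26 and again 0 passed. Krt8, which encodes a keratin of luminal cells, had 1033, 2189 and 2658 in stroma-rich tumours (lowest, median and highest), against 1639, 2238 and 4275 in stroma-poor tumours (-0.37, adjusted p = 0.444). Krt19 had 1322, 3346 and 5168 in stroma-rich tumours, against 2425, 3551 and 7517 in stroma-poor tumours (-0.39, adjusted p = 0.468), and Cdh1, which encodes E-cadherin, had 956, 1498 and 1979 in stroma-rich tumours, against 1089.6, 1646 and 2114 in stroma-poor tumours (-0.12, adjusted p = 0.733). All 3 overlapped between the groups. The mean log2 signal of the luminal list was 9.03 to 9.61 in stroma-rich tumours and 9.28 to 9.99 in stroma-poor tumours, against 7.78 to 9.17 in normal glands. Of 11 basal epithelial genes, 0 passed and 0 had an unadjusted p under 0.05, and Krt5 and Krt14 differed by 0.32 (adjusted p = 0.545) and 0.15 (adjusted p = 0.839). With the luminal list mean as a covariate, 746 genes were called, 465 higher and 281 lower, and 167 of the 180 were among them.

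No gene of division or milk secretion passed either. Among 23 cell division genes 0 passed, 1 had an unadjusted p under 0.05 and the median log2 difference was 0.09. Mki67, a marker of cycling cells, had 133, 179 and 273 in stroma-rich tumours (lowest, median and highest), against 69, 177 and 239 in stroma-poor tumours (0.19, adjusted p = 0.688), and Top2a, a topoisomerase of dividing cells, had 193, 256 and 479 in stroma-rich tumours, against 122, 293 and 493 in stroma-poor tumours (0.02, adjusted p = 1). Of 12 milk genes 0 passed and 1 had an unadjusted p under 0.05, and Csn2, which encodes beta-casein, spread over 18.3, 44.4 and 2301 in stroma-rich tumours, against 30.2, 44.2 and 686 in stroma-poor tumours (0.78, adjusted p = 0.698). Of 11 hormone receptor and paracrine genes 0 passed, with 3 at an unadjusted p under 0.05. Prlr, the prolactin receptor, had 1971, 2624 and 3783 in stroma-rich tumours, against 1283, 2309.7 and 3496 in stroma-poor tumours (0.29, adjusted p = 0.489), and Areg, which encodes amphiregulin, differed by 0.72 (adjusted p = 0.222). All 25 oxidative phosphorylation genes had small positive differences, none of which passed by limma, 6 had an unadjusted p under 0.05, and their median was 0.18, which was 0.01 after quantile normalization. Of 18 genes of hypoxia and glycolysis 0 passed and 2 had an unadjusted p under 0.05, with a median of -0.10.

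Immune lists gave no called gene in the main comparison. Outside these lists Cd48, which encodes a surface protein of leukocytes, was called at 1.42 (SE 0.19, adjusted p = 0.000544). Every stroma-rich tumour was above every stroma-poor one for Cd48. It was chosen after its values were seen, and its values under the alternatives were not examined. Of 18 macrophage genes, 15 had a positive difference, 9 had an unadjusted p under 0.05, and 0 passed after adjustment, with a median log2 difference of 0.49. Over all 10408 genes, 1687 had such an unadjusted p by limma. With the score as a number over 23 tumours, 4 of the 18 macrophage genes were called higher. With X22L ranked among the tumours 2 were, and after quantile normalization 0 were. Csf1r, the receptor for macrophage colony-stimulating factor, had 249, 378 and 732 in stroma-rich tumours (lowest, median and highest), against 212, 249 and 301 in stroma-poor tumours (0.63, adjusted p = 0.139), and Lyz2, which encodes lysozyme, had 1155, 2188 and 4405 in stroma-rich tumours, against 724, 1412 and 1664 in stroma-poor tumours (0.88, adjusted p = 0.111). Both overlapped. Of 21 lymphocyte genes 0 passed, 3 had an unadjusted p under 0.05 and the median was 0.01. Ptprc, which encodes CD45, had 52.1, 115 and 256 in stroma-rich tumours, against 72.7, 75.8 and 83.2 in stroma-poor tumours (0.66, adjusted p = 0.273). Lists of 9 mast cell, 18 skeletal muscle and 9 Schwann cell genes had 0 calls, with 0, 2 and 1 members at an unadjusted p under 0.05, and that of 15 antigen presentation genes had 0 calls with 1 such member. Cpa3, a carboxypeptidase of mast cells, had 66.4, 155 and 825 in stroma-rich tumours, against 64.2, 129.8 and 656 in stroma-poor tumours (0.22, adjusted p = 0.89).

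The 8 genes lower in stroma-rich tumours were mostly dim. H2ac25, a histone H2A gene with near-identical relatives that its probe set may also read, was listed at 1 in 5 stroma-rich tumours and had 1, 1 and 177 in stroma-rich tumours (lowest, median and highest), against 129.6, 226 and 530.2 in stroma-poor tumours. X29.1 was the highest of the stroma-rich tumours and overlapped the lower stroma-poor ones, and the difference was -2.11 (SE 0.35, adjusted p = 0.0028). In the normal glands its median was 1, as it was in the stroma-rich tumours. Lypd2, a small surface protein, had 1, 77.9 and 117 in stroma-rich tumours, against 98.7, 156 and 209 in stroma-poor tumours and differed by -1.05 (SE 0.21, adjusted p = 0.0137). Pzp, an alpha-macroglobulin protease inhibitor, had 114, 175 and 194 in stroma-rich tumours, against 182, 247 and 359 in stroma-poor tumours and differed by -0.58 (SE 0.14, adjusted p = 0.0349). The others differed by less than 1 on the log2 scale, namely Card9 (-0.63), Slc22a2 (-0.63), Ncan (-0.43), Fgf22 (-0.41) and Slc4a3 (-0.33). Apart from H2ac25, Lypd2 and Ncan, the calls of these genes were lost in 10 to 13 of the 16 fits that left out 1 tumour (adjusted p up to 0.0984). Each of X15, X18, X19, X20 and X25L ended all 5 of those calls when left out, and X25R, X27 and X32 ended none. After quantile normalization the 8 were among the 26 genes called lower.

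**Figure D3:**
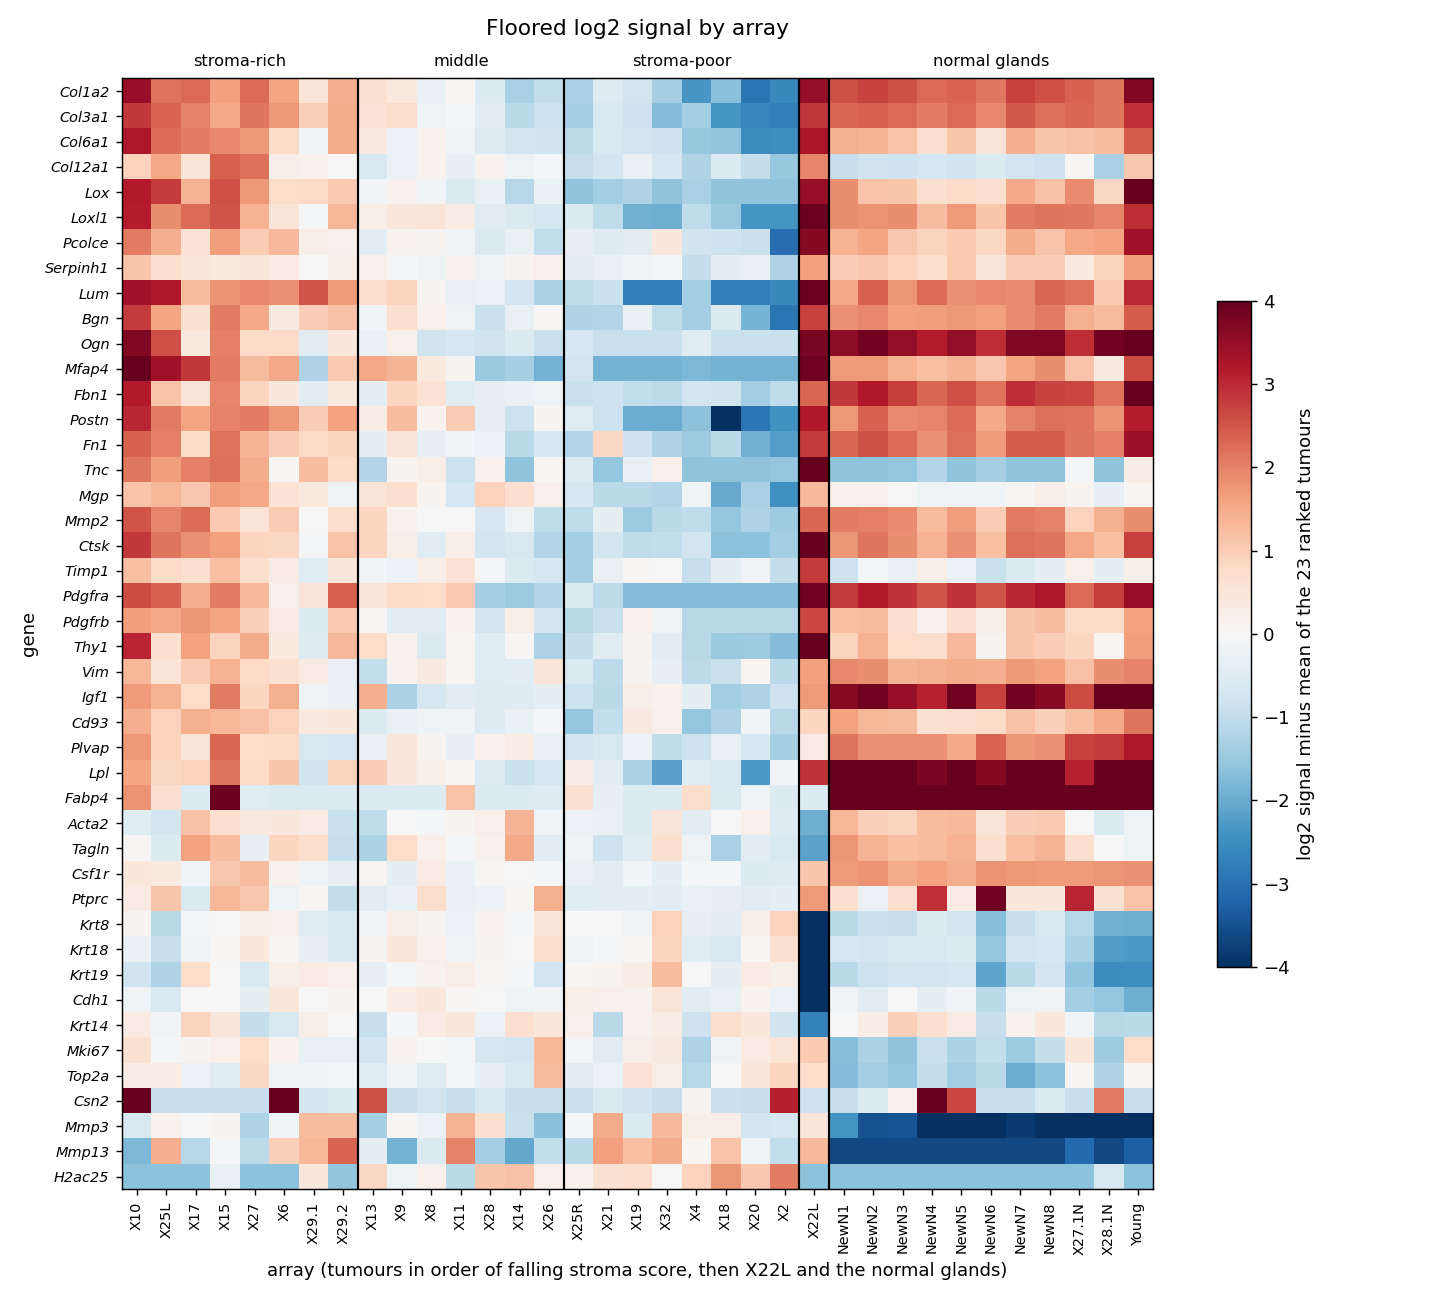
Floored log2 signal of 44 genes (rows) on the 35 arrays (columns), each minus the gene's mean over the 23 ranked tumours; colours stop at 4 and -4. Tumours stand from the highest stroma score to the lowest, followed by X22L and the normal glands. Matrix and fibroblast genes in the upper rows pass from red to blue along the tumours (Lum 1013 in the median stroma-rich tumour, against 38.4 in the median stroma-poor one), while keratin and division genes do not.

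The 7 middle tumours took no part in the fit, and their scores lay between those of the groups by construction. Of the 172 genes higher in stroma-rich tumours, the mean of the middle tumours lay between the means of the groups for 168. The same held for 4727 of all 10408 genes. The 172 were selected for a gap between the stroma-rich and stroma-poor means, which most of the 10408 genes lack. The contrast is therefore largely built in, and no conclusion is drawn from it. Mean signals of Lum were 1434 in stroma-rich tumours and 284 in middle tumours, against 64.7 in stroma-poor ones. For Col3a1 they were 5104 in stroma-rich tumours and 1246 in middle tumours, against 452 in stroma-poor ones. Krt8, by contrast, had 2012, 2400.0 and 2637 in the same order and was not called.

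X25L and X25R carry the same title number and stand at opposite ends of the score, so their values are set side by side, with 1 array each and no test. Col1a1 had a signal of 4569 in X25L and 408 in X25R, and Lum had 2531 in X25L and 135 in X25R. Lox had 878 in X25L and 38.3 in X25R, and Cd93 had 231 in X25L and 38.2 in X25R. For Krt8 the order was the opposite, with 1033 in X25L and 2246 in X25R, and for Cdh1 too, with 956 in X25L and 1806 in X25R. Over all probe sets the log2 signals of X25L and X25R had a Pearson r of 0.950 and those of X29.1 and X29.2 of 0.972, beside a median of 0.942 over all pairs of the 23 tumours. With the title number as a random block, 226 genes were called, 178 of them among the 180.

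Set against the 11 normal glands, 22.2% of genes were higher and 19.2% lower in stroma-rich tumours. In stroma-poor tumours 57.1% of genes were called against normal glands, 3034 of them higher and 2914 lower. Of the 172 genes higher in stroma-rich than in stroma-poor tumours, 16 were higher, 103 lower and 53 not called in stroma-rich tumours against normal glands. In stroma-poor tumours against normal glands, 0 of the 172 were higher, 162 lower and 10 not called. Both comparisons share the normal glands. Without the 8 glands titled NewN, 1516 genes were called in stroma-rich tumours and 2589 in stroma-poor tumours against the 3 that remain, in place of 4308 and 5948. Those 3 glands are X27.1N, X28.1N and Young. X27.1N shares its title number with X27, a stroma-rich tumour, and the fits treated the arrays as independent. For 140 of the 172 the mean of the normal glands was above that of the stroma-rich tumours, against 4570 of all 10408 genes, and for 30 it lay between the groups. Col1a2 and Col3a1 were not called in stroma-rich tumours against normal glands, with stroma-rich minus normal differences of -0.63 (adjusted p = 0.107) for Col1a2 and -0.42 (adjusted p = 0.199) for Col3a1. Stroma-poor minus normal differences were -4.22 (adjusted p = 3.92e-13) for Col1a2 and -4.003 (adjusted p = 1.36e-14) for Col3a1. Lum followed the same order, at 0.20 (adjusted p = 0.65) in stroma-rich tumours and -4.10 (adjusted p = 6.34e-13) in stroma-poor tumours, each minus normal glands.

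Some stromal genes stayed below the normal level even in stroma-rich tumours. Dpt was at -3.30 (adjusted p = 1.35e-07) in stroma-rich tumours and -5.82 (adjusted p = 1.8e-13) in stroma-poor tumours, each minus normal glands on the log2 scale. Igf1 was at -2.64 (adjusted p = 5.87e-08) in stroma-rich tumours and -4.27 (adjusted p = 4.8e-13) in stroma-poor tumours. Ogn, Fbn1, Igfbp6, Cd248 and Enpp2, which encodes the lipid-signalling enzyme autotaxin, had stroma-rich minus normal differences between -3.42 and -1.77, all of which passed. Normal glands also hold fat, with adipocyte list means above those of all 16 tumours, and the part of fat in these differences was not tested.

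A smaller group of genes was on average higher in stroma-rich tumours than in normal glands, with overlap between single arrays for some. Tnc signals were 133, 381 and 581 in stroma-rich tumours (lowest, median and highest), against 1, 40.4 and 158 in normal glands, a log2 difference of 2.67 (adjusted p = 5.11e-08). In stroma-poor tumours Tnc differed from normal glands by 0.16 (adjusted p = 0.71). Cdh11 was 1.69 above normal glands in stroma-rich tumours (adjusted p = 8.98e-07) and stood at -0.38 in stroma-poor tumours (adjusted p = 0.173). Col12a1 had 1.58 (adjusted p = 2.93e-05) in stroma-rich tumours and -0.27 (adjusted p = 0.412) in stroma-poor tumours. Its signals in the normal glands Young, at 398, and X27.1N, at 195, lay inside the stroma-rich range of 188 to 998. The other normal glands had 77.4 to 130. Timp1 showed 0.88 (adjusted p = 0.00124) in stroma-rich tumours and -0.22 (adjusted p = 0.382) in stroma-poor tumours, each minus normal glands. Mgp lay on both sides, at 0.93 (adjusted p = 0.00209) in stroma-rich tumours and -1.25 (adjusted p = 3.87e-05) in stroma-poor tumours. Thbs4, which encodes thrombospondin-4, and F2r, the thrombin receptor, were above normal glands in stroma-rich tumours by 1.07 and 0.79 (adjusted p = 0.00251 and 0.00016). Their stroma-rich minus stroma-poor differences were 1.28 (SE 0.29, adjusted p = 0.0297) for Thbs4 and 1.49 (SE 0.21, adjusted p = 0.000768) for F2r. The call of Thbs4 was lost without X2, X10, X18, X19, X20 or X25L (adjusted p up to 0.0675).

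**Figure D4:**
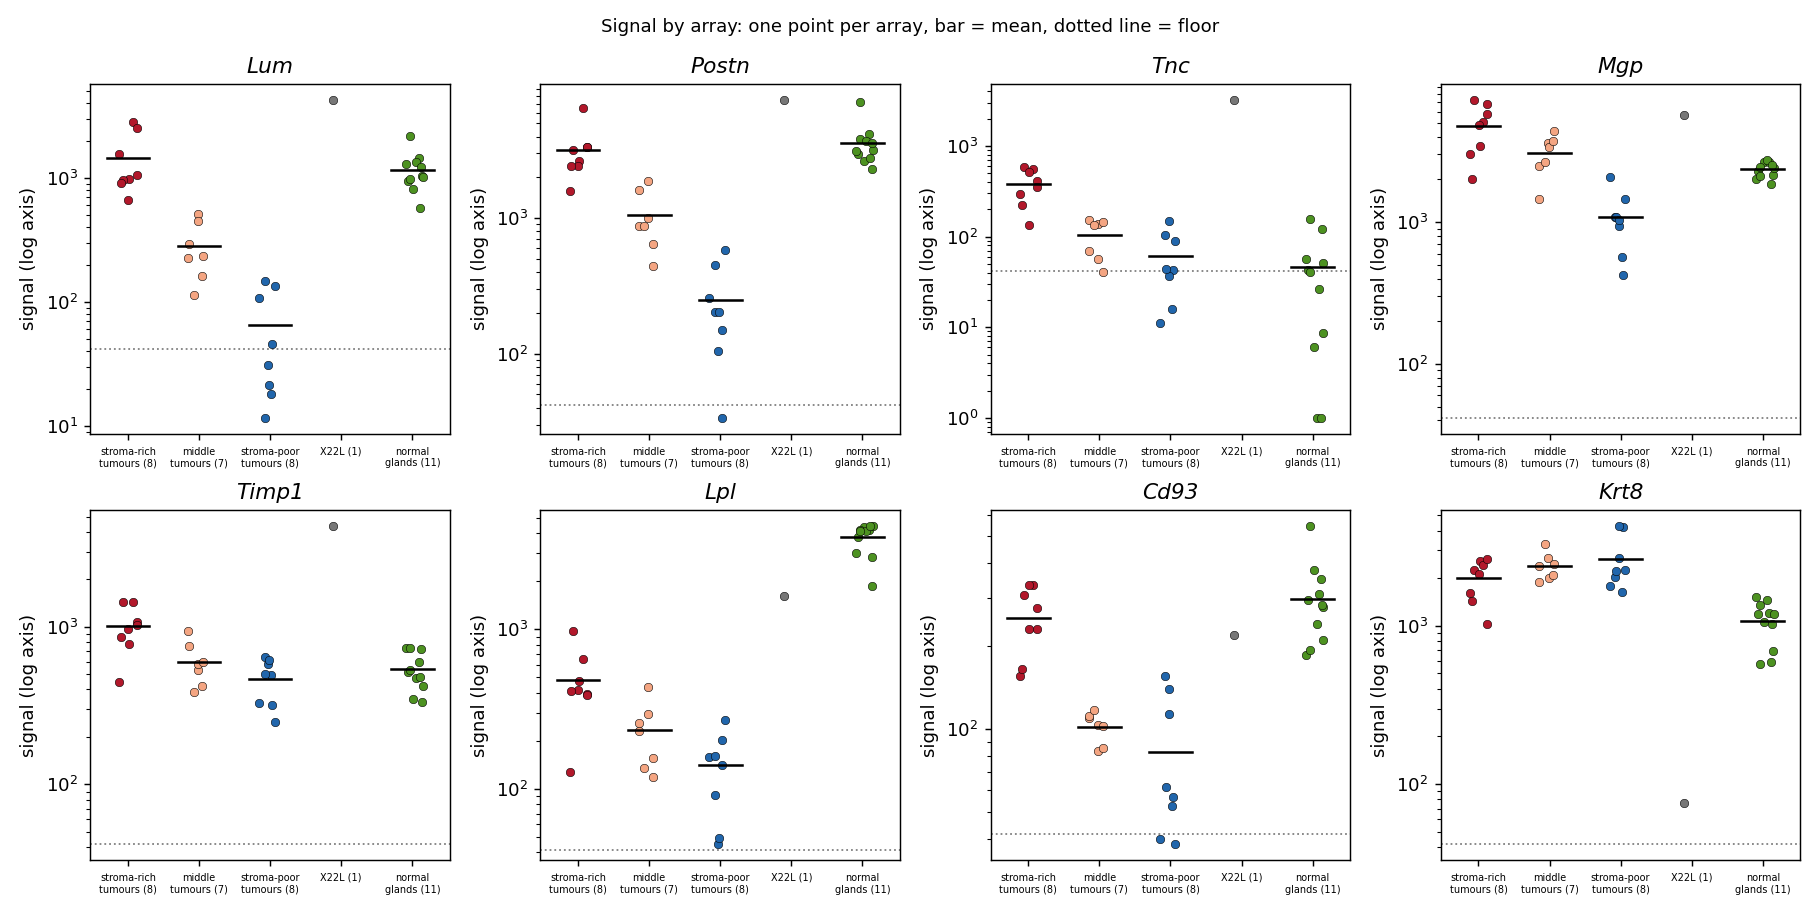
Signals (log axes) of 8 genes on each array, for stroma-rich, middle and stroma-poor tumours, X22L and normal glands. Each point is 1 array, bars are means and the dotted line is the floor of 41.6. Lum and Postn of stroma-rich tumours overlap the normal glands, Tnc, Mgp and Timp1 average above them, Lpl lies below all of them, and Krt8 overlaps between the 3 groups of tumours.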

How the data were processed

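Each of the 35 samples was hybridised to 1 Affymetrix RAE230A array, and the values used were the deposited intensity signals of 15923 probe sets on a linear scale. The software, scaling and background correction behind the intensities that the authors deposited were not given in the sources used here. Array medians ran over 157.9 to 176.3, and 3601 values were exactly 1, the lower bound of the table. No counts lie behind an intensity, so the number of arrays limits the precision.

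After 57 control probe sets were removed, signals were floored at 41.6, the 10th percentile of all values, and turned to log2, with no further normalization. Of the 15866 probe sets, 12783 have 1 gene symbol in the platform annotation, 312 several and 2771 none, and 12748 matched by Entrez number. A gene is represented by its probe set with the highest mean. The 5 probe sets of Col1a1, Dcn and Sparc were left out, and the other 15861 were fitted with limma 3.58.1 in R 4.3.3 (lmFit, eBayes with trend and robust). The main comparison used 8 arrays against 8, and the comparisons with normal glands came from a fit of all 35 arrays that shares one estimate of the spread. P-values were adjusted over all 15861 probe sets by the Benjamini-Hochberg method, and an adjusted p under 0.05 is a call. Permutation tests used SciPy 1.17.1. Fold changes of genes at the floor are understated.

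Genes named are up to 10 with the largest rise and fall among called genes of stable direction, the 3 largest called and 2 brightest members of each of 28 lists, a panel, and those said to be chosen after their values were seen. The members and lists were chosen with earlier results of these data known. Alternatives were other floors, filters, normalizations, group sizes, single score genes, covariates and each tumour left out. The fit was also run on simulated data with independent noise for each probe set and set fold changes. Groups in that simulation were not chosen by simulated signals, so it cannot show how such a choice affects the calls.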

Additional observations from a re-analysis of the deposited data

Results flagged for a closer look

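In 27 of the 304 groups of arrays tested, the highest or lowest array stood apart from the others of its group by Dixon's criterion. The criterion was set at a chance rate of about 1 of 20 groups, but that rate does not hold for floored signals. Where most arrays of a group tie at the floor, an array above it can be flagged because of the floor. Enpp2 was at the floor in 7 stroma-poor tumours, and Mfap4, Cd248, Cdh11 and Ogn were in 6. The count of 27 therefore cannot be set against the chance rate. The values that follow are floored log2 signals of the array that stood apart, with no cause tested.

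Among stroma-rich tumours, X27 was the lowest by far for Csn3 at 11.56, Igfbp5 at 10.69 and Timp3 at 8.46. X10, which had the highest stroma score, was high for Fap at 7.98 and Nid2 at 8.56. X29.1 was low for Lpl at 7.003, and X15, the tumour with the highest adipocyte list mean, was low for Pzp at 6.83.

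Among stroma-poor tumours, single tumours were high for matrix and fibroblast genes. X25R was high for Mfap4 at 6.50 and Enpp2 at 6.48, X21 for Fn1 at 10.08, Mmp2 at 8.42 and Cdh11 at 6.02, X19 for Cd248 at 5.95, and X4 for Ogn at 5.77. Others were low for such genes, X32 for Eln at 8.04, X20 for Fbn1 at 5.97, and X2, the tumour with the lowest score, for Pcolce and S100a4, both at the floor of 5.38. X2 was also low for Gask1b at 8.25, which was chosen after its values were seen, and high for Csn2 at 9.42. X32 was high for the keratin gene Krt19 at 12.88, and X20 was low for Csn3 at 8.02 and Ctsb at 10.89. X4 was low for Calr at 10.99, Eno1 at 10.98 and Stmn1 at 8.80, and high for the 3' over 5' ratio of Actb at 1.31.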

How the results depend on the processing

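No called gene examined one by one turned its direction under an alternative. The genes named for the largest rises and falls were chosen to keep it under quantile normalization and without each tumour. For them that part of the result was built in. Against 180 calls (172 higher, 8 lower), array weights gave 738 (541 and 197), the luminal mean as a covariate 746 (465 and 281), 11 tumours a group 523 (366 and 157) and the score as a number over 23 tumours 503 (433 and 70). Col1a1 alone as the score gave 351 (290 and 61), Sparc alone 290 (254 and 36) and Dcn alone 132 (125 and 7). All 35 arrays in 1 fit gave 296 (281 and 15). A floor at the 20th percentile gave 113 (108 and 5) and the adipocyte mean as a covariate 93 (91 and 2). Only the count of lower genes moved by over 1.5 times with quantile normalization (26), 1 tumour per title number (19), a filter that kept the brighter probe sets (2) and the Gapdh ratio as a covariate (4). The cause of these shifts was not tested. Leaving out 1 tumour gave 122 to 272 calls, 119 to 242 higher and 3 to 34 lower. Against normal glands, that filter gave 2631 calls for stroma-rich and 3504 for stroma-poor tumours, and without the NewN glands these were 1516 and 2589, with fewer probe sets or arrays tested. Of 73 called genes examined one by one, 56 kept the call in every fit without 1 tumour. Of the 73, a floor at the 20th percentile ended 21 calls, 1 tumour per title number 14 and limma without trend and robust fitting 13. The Gapdh ratio ended 7, quantile normalization 5 and a floor at the 5th percentile 3. Dcn alone as the score ended 18, H2ac25 and Vim among them, Sparc alone 10 and Col1a1 alone 3. No paired analysis was possible because a title number joins only 1 stroma-rich and 1 stroma-poor tumour, X25L and X25R, and the labels do not say what it stands for. The title number as a random block gave 226 calls, and 1 tumour per number gave 212. Signals near the floor limit what can be measured of dim genes.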
